A study of Homo sapiens with 20 samples.

Results

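Fibronectin (FN1) was followed through its skipped-exon events and through its level in a FUBP1 immunoprecipitation experiment, in HepG2 cells, a line from a human liver tumour. Its members were all events that carried the FN1 symbol in the 3 deposited tables of skipped exons, with exons told apart by their coordinates. There were 57 such events of 59847 in all, with 23 of 19792 in the siFUBP1 table, 19 of 32990 in the U3 table and 15 of 7065 in the siFBL table. The 57 events covered 28 distinct exon forms, of which 9 were listed in all 3 tables, and FN1 was 1 of 9538 genes with an event. FN1 was selected on its measured inclusion values, since 1 of its exons was already known to change in the siFUBP1 and U3 comparisons, so the values of those comparisons are given as a description, without a test.

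The study asked how 2′-O-methylation of nuclear RNA, and the protein FUBP1 that binds it, bear on splicing. FUBP1 was depleted with siFUBP1 against siCtrl2 (3 libraries each, harvested at 48 h). U3, a small nucleolar RNA of the kind that works with fibrillarin, was depleted with U3 ASO against GFP ASO, both antisense oligonucleotides (3 libraries each, harvested at 72 h). Fibrillarin, the enzyme that places the modification, was depleted with siFBL against siCtrl (2 input libraries each, 48 h), and the same lysates gave 2 FUBP1 RIP libraries per condition, so that 16 of the 20 libraries held junction reads. All groups were HepG2 cells without a genetic change, every depletion used 1 reagent, and the labels give polyA RNA for the siFUBP1 and U3 groups but not for the inputs. The study's methods call the replicates of each group biological, without saying how the cultures were kept apart.

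Fibronectin is a large glycoprotein built from repeated modules. Hepatocytes secrete it into plasma, and other cells deposit it as fibres of the extracellular matrix, where integrins bind it. Its transcript is a classical case of alternative splicing: the extra domains EDB and EDA are each a single exon that encodes 1 whole module and can be skipped without loss of the reading frame, whereas the variable region (also called IIICS) is an exon with alternative acceptors and an internal intron. Plasma fibronectin from hepatocytes is known to lack both extra domains, and cellular fibronectin of fetal, healing and tumour tissue to carry them.

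FN1 (ENSG00000115414.21) lies at chr2:215360440-215436073 on the minus strand of hg38, and its canonical transcript in GENCODE 44 has 46 exons. EDB is exon 25 (chr2:215392931-215393203, 273 bases, 91 codons), between introns of 1324 and 1116 bases. EDA is exon 33 (chr2:215380811-215381080, 270 bases, 90 codons), between introns of 1131 and 1493 bases. Both are coding exons. Among 10 coding transcripts that span both positions, 3 carry EDB, 5 carry EDA, 2 carry both and 4 carry neither. Exon 28 (chr2:215386689-215386958) has the length of EDA but is included nearly always in these data, and serves as a comparison.

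The acceptor sites of these 3 exons are shown with the 100 intron bases before each exon, 5′ to 3′ on the transcript strand, in which capitals mark runs of 4 or more T.
EDB, chr2:215393204-215393303: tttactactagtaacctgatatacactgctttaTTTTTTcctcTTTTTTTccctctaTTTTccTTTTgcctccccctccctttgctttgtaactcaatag
EDA, chr2:215381081-215381180: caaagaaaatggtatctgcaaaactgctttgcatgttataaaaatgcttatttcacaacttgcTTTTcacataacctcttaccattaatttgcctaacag
exon 28, chr2:215386959-215387058: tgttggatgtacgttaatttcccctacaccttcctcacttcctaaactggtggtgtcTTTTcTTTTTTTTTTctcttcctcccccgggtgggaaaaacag
Before EDB, 77% of these bases were pyrimidines and 48% were T, at percentiles 99.3 and 93.3 of 31837 skipped exons of the 3 tables, whose medians were 55% and 35%. The stretch before EDA sat at the median of all skipped exons, with 55% pyrimidines and 34% T. The constitutive exon 28 also followed a stretch rich in pyrimidines (67%, with 40% T), at percentiles 93.0 and 69.1. The part of this feature in skipping was not tested.

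The donor sites of the same exons follow, with the last 3 exon bases in capitals.
EDB, chr2:215392904-215392933: CGGgtgaattttgaaaacttctgcgtttga
EDA, chr2:215380784-215380813: CAGgtatatggttaattgcaccaccaggtg
exon 28, chr2:215386662-215386691: CAGgtaacttttcttgtctgcaaagaaact
Scored with a position weight matrix made from 170763 internal exons of GENCODE 44, the donor was at percentile 23.3 for EDB, 34.4 for EDA and 65.5 for exon 28. The acceptor was at percentile 11.9 for EDB, 15.1 for EDA and 0.180 for exon 28. Its score covers 20 intron bases and 3 exon bases, a window that leaves out the runs of T marked above. The acceptor scores of EDA and EDB were close, and that of exon 28 was the lowest of the 3. The part of these scores in inclusion was not tested.

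The hexamer TGCATG is known as the binding site of RBFOX splicing proteins and as an element of the intron after EDB. It was searched on the transcript strand, overlaps allowed, and occurred 6 times in the 1116 bases of that intron. The windows of 30 bases around the copies are shown with the hexamer in capitals, named by its distance from the intron start.
base 42, chr2:215392872-215392901: catagatggtgtTGCATGctgccaccagtt
base 603, chr2:215392311-215392340: ggttctctgctgTGCATGggaaaagaaaca
base 636, chr2:215392278-215392307: tgagaaccaattTGCATGaacatgttcact
base 740, chr2:215392174-215392203: tttttgtctgtgTGCATGtatttctttgta
base 998, chr2:215391916-215391945: gattagactgttTGCATGattatgattctg
base 1025, chr2:215391889-215391918: ctgtttcctttaTGCATGaaatattgattt
Of 21634 skipped exons with a downstream intron at least as long, 13 (0.0601%) held 6 or more copies in the same number of bases, and 27.6% held at least 1. Within 300 bases of the donor EDB had 1 copy, as 8.89% of all skipped exons had at least 1. The intron before EDB and the intron after EDA held none, and the intron before EDA held 1, at base 1061. A match of letters is a description of the sequence and was not tied to any protein here.

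The EDA exon is known for a purine-rich splicing enhancer to which SR proteins bind. The exon (chr2:215380811-215381080) is shown with the octamer GAAGAAGA of that enhancer in capitals.
EDA: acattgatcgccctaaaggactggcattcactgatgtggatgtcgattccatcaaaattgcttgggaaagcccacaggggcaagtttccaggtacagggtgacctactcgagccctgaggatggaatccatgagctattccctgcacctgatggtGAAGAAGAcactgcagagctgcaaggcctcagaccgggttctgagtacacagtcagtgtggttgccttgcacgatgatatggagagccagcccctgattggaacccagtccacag
EDB (chr2:215392931-215393203) has no copy.
EDB: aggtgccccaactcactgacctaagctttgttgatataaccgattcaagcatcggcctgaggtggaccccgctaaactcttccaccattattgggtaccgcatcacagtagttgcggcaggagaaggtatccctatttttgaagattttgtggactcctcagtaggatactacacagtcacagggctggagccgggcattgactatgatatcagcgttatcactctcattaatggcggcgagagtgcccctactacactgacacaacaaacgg
Searched on the transcript strand, the octamer was present in 2.25% of all skipped exons, and in 2.53% of the 829 exons of 240 to 300 bases.

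A library held 2693397 to 4474350 junction reads in the siFUBP1 table, 11249641 to 13321799 in the U3 table and 910779 to 1142189 in the siFBL table. These are sums over events, so a junction listed in several events was counted in each of them. Depletion of the targets was read from the same junctions: FUBP1 had 45.2 to 56.1 reads per 1e+06 junction reads in siCtrl2 and 4.08 to 10.1 in siFUBP1. In U3 ASO the FUBP1 junction reads were 69.4% of their mean in GFP ASO, and the libraries of these groups did not overlap either. No event of FBL was listed, and U3 was not measured. In the gene table of the RIP experiment, the authors' mean for FBL was 1034 in siCtrl and 164 in siFBL. For FUBP1 it was 14257 and 8689. This mean pools FUBP1 RIP and input libraries, so it is not the level in the input alone. Of 9 hepatocyte markers, 8 had events in every table, whereas none of 6 fibroblast and stellate cell markers had any, which is not a measure of their level. Of 3 endothelial and blood cell markers only PECAM1 had events, in the U3 table alone, at no more than 0.834 reads per 1e+06. In the gene table of the RIP experiment, the authors' mean in siCtrl was 2.49 to 33.2 for 5 of the fibroblast and stellate cell markers (LUM and COL1A1 at the ends). PDGFRB, the remaining marker, stood higher, at 1003 in siCtrl and 612 in siFBL, beside 337272 in siCtrl for the hepatocyte marker ALB. The part of these markers in the FN1 values was not tested.

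Inclusion is given as a level from 0 to 1: the junction reads that join the exon to its neighbours, over those reads plus the reads that skip it, each divided by the effective length in the table. An event was tested with at least 10 junction reads per library on average, a filter that all 57 FN1 events passed, and was called at an adjusted p under 0.1 in a quasi-binomial fit over all events of its table. For EDB and EDA, counting error was small: the 95% Wilson half-width of the share of inclusion reads in a library was 0.522 to 1.36 percentage points for EDB and 0.281 to 0.441 for EDA. It covers counting error only.

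EDB was a minor exon in every library, and its inclusion moved in opposite directions after depletion of FUBP1 and of U3. In siCtrl2 its inclusion level was 0.112, 0.124 and 0.0976 in the 3 libraries, from 716, 1393 and 626 inclusion reads against 2831, 4936 and 2893 skipping reads. In siFUBP1 it was 0.173, 0.174 and 0.184, from 1430, 1324 and 1381 inclusion reads against 3419, 3136 and 3060 skipping reads. All siFUBP1 libraries lay above all siCtrl2 libraries. The mean level rose from 0.111 ± 0.0130 to 0.177 ± 0.00609 (SD, n = 3 each), a difference of 0.0659 and a ratio of 1.59. It was the 1 FN1 event of 23 whose groups did not overlap, where 5.05% of all 16213 tested events did not overlap, and the 1 that was called, where 0.197% of all events were called. Since this comparison picked FN1, nothing is read from these shares. The call was not made by limma on log2 odds, with or without a variance trend (0 of 23 FN1 events in each).

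With U3 depleted, EDB inclusion went down. It was 0.0717, 0.0722 and 0.0657 in GFP ASO, from 1060, 1088 and 1100 inclusion reads against 6863, 6994 and 7824 skipping reads. In U3 ASO it was 0.0422, 0.0436 and 0.0454, from 754, 820 and 971 inclusion reads against 8566, 9003 and 10216 skipping reads. The groups did not overlap, and libraries within a group lay close together. The mean level fell from 0.0698 ± 0.00362 to 0.0437 ± 0.00161 (SD, n = 3 each), a difference of -0.0262 and a ratio of 0.626. In inclusion reads the U3 ASO libraries were lower although they held more reads of FN1 in all.

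With fibrillarin depleted, the mean EDB level was lower, but the groups overlapped and the event was not called. The level was 0.0570 and 0.0443 in siCtrl input and 0.0457 and 0.0317 in siFBL input, so that the groups overlapped. The means were 0.0507 ± 0.00903 and 0.0387 ± 0.00985 (SD, n = 2 each), a difference of -0.0120. The quasi-binomial F test, with dispersion moderated by limma, gave p = 0.0572 and a Benjamini-Hochberg adjusted p of 0.874. An exact two-sided permutation test gave p = 0.667, and 0.333 is the smallest p that 2 against 2 libraries allow. This comparison had no part in the choice of FN1, and a p above the threshold does not show that EDB is unaffected by fibrillarin.

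**Figure D1:**
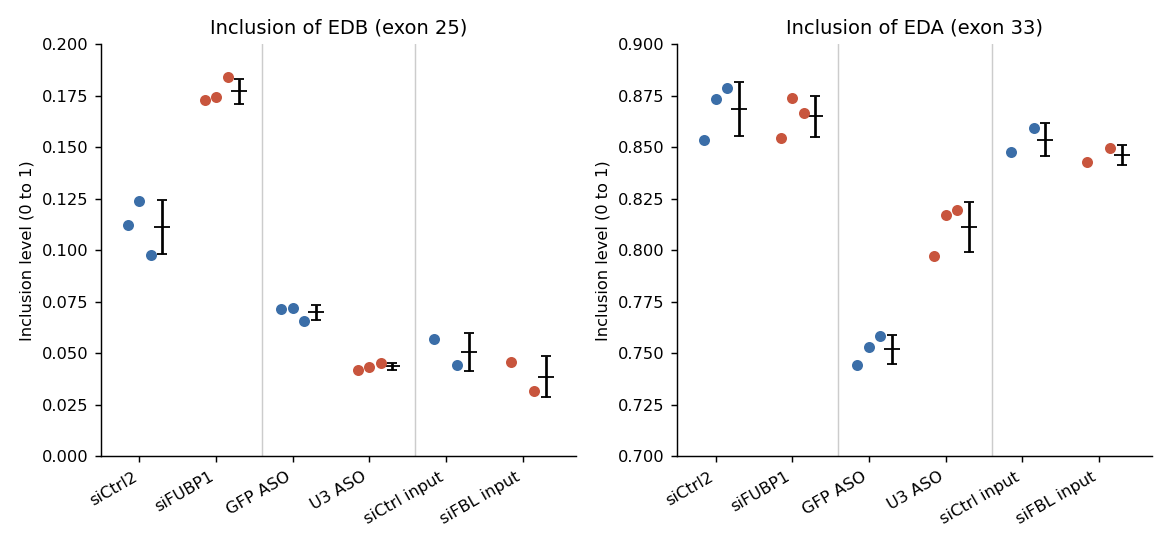
Inclusion level (0 to 1) of EDB, left, and EDA, right, in each library of the 6 groups; points are libraries (blue, control; red, depletion), and the black bar beside them is the mean with the SD. EDB lies higher in siFUBP1 than in siCtrl2 and lower in U3 ASO than in GFP ASO, whereas EDA separates in the U3 pair alone, higher in U3 ASO; the EDA axis runs from 0.7 to 0.9 and does not start at 0.

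EDA was a major exon, and its groups separated in the U3 comparison alone. In siCtrl2 its level was 0.854, 0.873 and 0.879, and in siFUBP1 0.854, 0.874 and 0.866. The groups covered nearly the same range, with means of 0.869 ± 0.0132 and 0.865 ± 0.00978 (SD, n = 3 each) and a difference of -0.00368 whose sign turned when the third-listed siCtrl2 library (0.00136) or the first-listed siFUBP1 library (0.00156) was left out. Thus the siFUBP1 libraries that differed from siCtrl2 at EDB, 8 exons upstream, overlapped with siCtrl2 at EDA.

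In GFP ASO the EDA level was 0.744, 0.753 and 0.758, from 26217, 26059 and 29599 inclusion reads against 4502, 4272 and 4720 skipping reads. In U3 ASO it was 0.797, 0.817 and 0.819, from 34055, 37766 and 39135 inclusion reads against 4330, 4233 and 4315 skipping reads. The groups did not overlap, and U3 ASO had more inclusion reads at about the same number of skipping reads, while FN1 reads in all were more. The mean level rose from 0.752 ± 0.00700 to 0.811 ± 0.0121 (SD, n = 3 each), a difference of 0.0593, and the skipped level became 0.761 of that in GFP ASO. In the U3 comparison the extra domains therefore moved in opposite directions, EDA up and EDB down. In all, 3 of 19 FN1 events did not overlap between GFP ASO and U3 ASO (EDA, EDB and exon 41), beside 6.03% of 30110 tested events, and 2 (EDA and EDB) were called, beside 0.226% of all events. As in the siFUBP1 table, this comparison picked FN1 and nothing is read from these shares. Neither EDA nor EDB was called by limma on log2 odds, which called 0 FN1 events without a variance trend and 1, exon 41, with it.

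For siFBL, EDA was at 0.848 and 0.859 in siCtrl input and at 0.843 and 0.849 in siFBL input. The ranges overlapped, with means of 0.853 ± 0.00797 and 0.846 ± 0.00483 (SD, n = 2 each). The difference was -0.00748 (quasi-binomial F test, adjusted p = 0.874; exact two-sided permutation p = 0.667).

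Set against all events with reads in every library, the EDB and EDA differences ran from small to moderate in size. The absolute difference of EDB was at percentile 71.2 of 15874 events in the siFUBP1 comparison, 57.3 of 29374 in the U3 comparison and 13.9 of 5004 in the siFBL comparison, where the median absolute differences over all events were 0.0288, 0.0197 and 0.0648. EDA was at percentiles 10.3, 76.8 and 9.57. These are percentiles among events of every depth. The mean number of junction reads per library was 4524 for EDB and 16760 for EDA in the siFUBP1 table, and 9210 and 36534 in the U3 table.

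**Figure D2:**
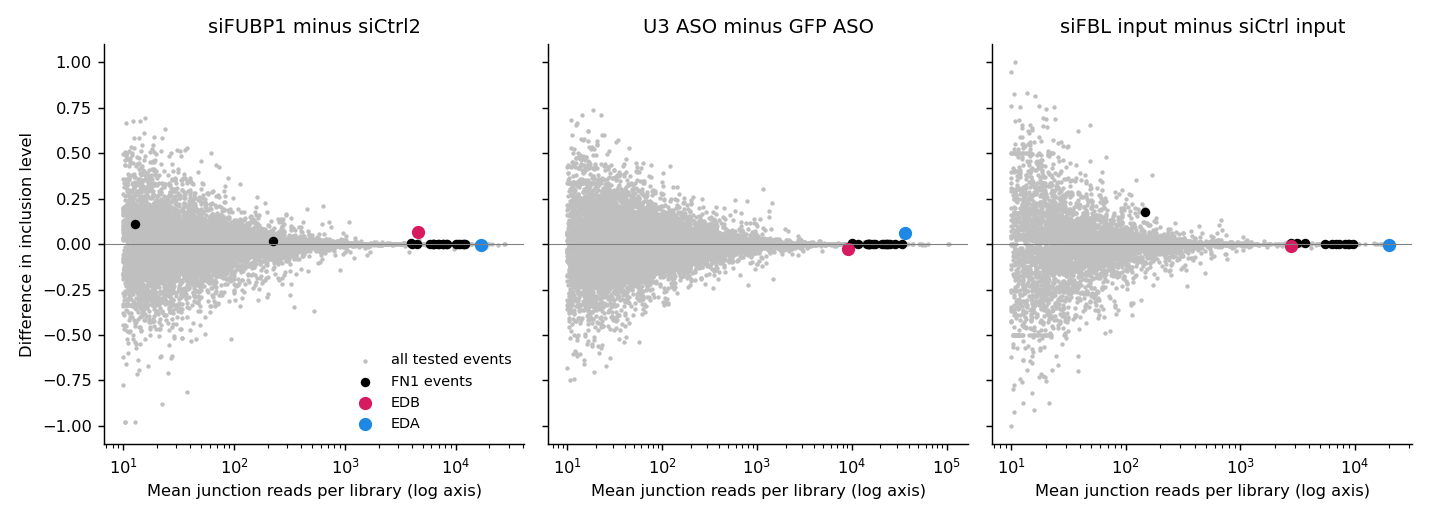
Difference in inclusion level (depletion minus control) against mean junction reads per library (log axis) for all tested events (grey) and the FN1 events (black), with EDB in pink and EDA in blue, in the 3 comparisons. The spread of the grey points narrows with depth. EDB lies at 0.0659 in the siFUBP1 panel and EDA at 0.0593 in the U3 panel. Events of like depth were not ranked, and these 2 comparisons picked FN1, so the positions are a description only.

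The 3 control groups themselves differed in both extra domains. The mean EDB level was 0.111 in siCtrl2, 0.0698 in GFP ASO and 0.0507 in siCtrl input, with no overlap between them, and the lowest of all 6 group means was that of siFBL input (0.0387). In this order siCtrl input (0.0443 to 0.0570) overlapped with U3 ASO (0.0422 to 0.0454), and U3 ASO with siFBL input. The mean EDA level was 0.869 in siCtrl2, 0.853 in siCtrl input and 0.752 in GFP ASO. Here siCtrl2 and siCtrl input overlapped, and GFP ASO stood below every other group, U3 ASO (0.797 to 0.819) included. By their labels and methods, siCtrl2 and GFP ASO differ in reagent and time of harvest, and siCtrl2 and siCtrl input in reagent and RNA source. GFP ASO and siCtrl input differ in all of these. Within each pair the factors cannot be told apart. Levels were therefore compared within a table only.

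Outside EDA, EDB and the variable region, FN1 exons were included in nearly every read. With siFUBP1 and its control, 16 such exons had levels of 0.996 to 1 in all libraries, with at most 16 skipping reads in a library and no difference beyond 0.00132. In the U3 table the levels of 15 exons were 0.998 to 1, with at most 31 skipping reads and no difference beyond 0.00150. With siFBL and its control, 8 events on 6 exons had levels of 0.992 to 1, with at most 15 skipping reads and no difference beyond 0.00410. Skipping reads were 0 in 74 of 96, 64 of 90 and 23 of 32 values of single libraries. Counts of 0 allow skipping shares of up to 0.0186 to 0.0921%, 0.00863 to 0.0284% and 0.0291 to 0.111% of the event's reads.

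Exon 41 (chr2:215370294-215370432, 139 bases) follows the variable exon and was the 1 of these exons whose groups separated in the U3 table. It was skipped in 12, 0 and 0 reads in GFP ASO and in 31, 23 and 22 reads in U3 ASO, a small count beside its inclusion reads (20915 to 28245 per library). Its level was 0.9996 ± 0.000625 and 0.9981 ± 0.000515 (SD, n = 3 each), so that the separation concerned a difference of -0.00150.

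**Figure D3:**
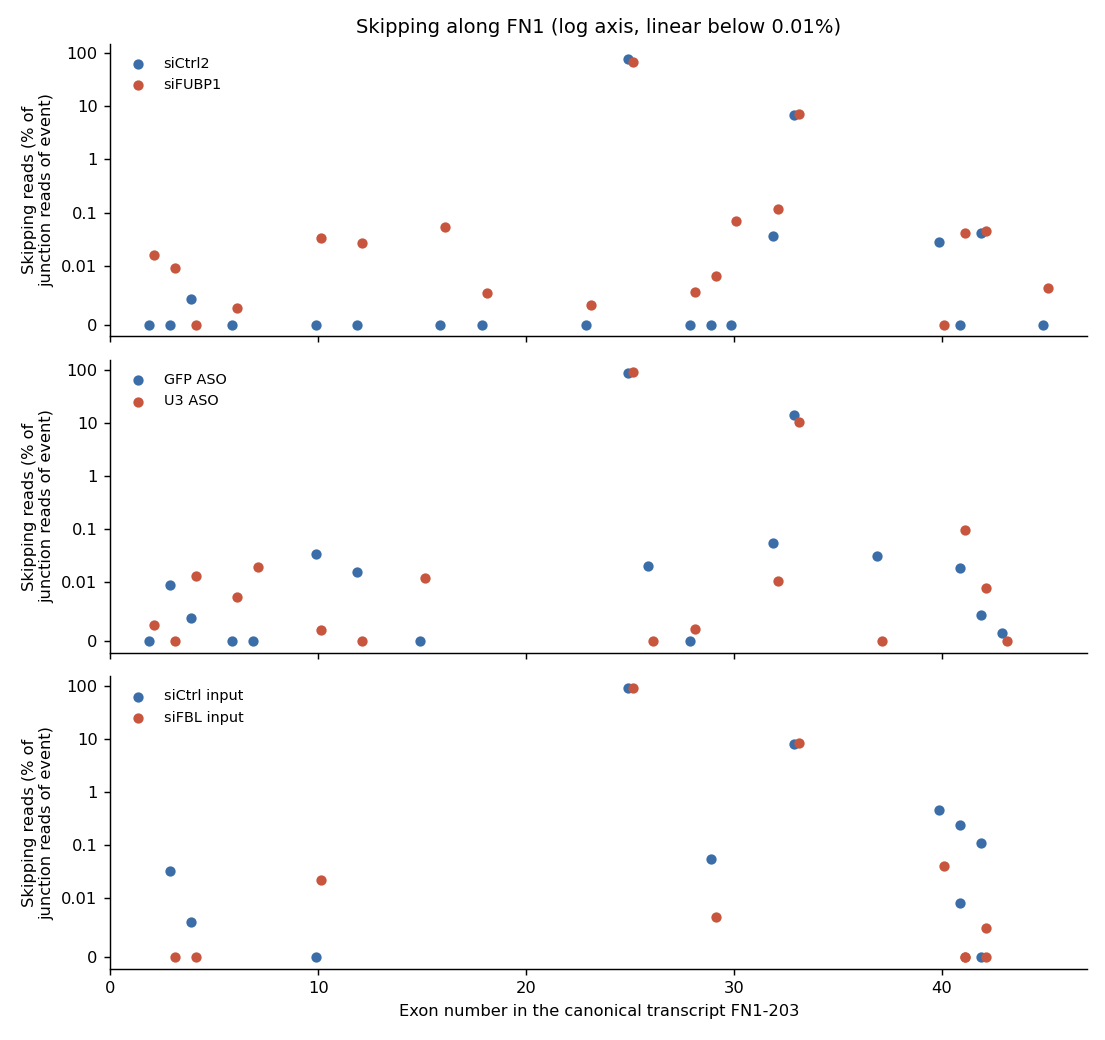
Skipping reads as a percent of the junction reads of each event (log axis, linear below 0.01%), summed over the libraries of a group, against the exon number in the canonical transcript; blue, control; red, depletion. EDB (exon 25) is skipped in 69.9 to 92.6% of its reads and EDA (exon 33) in at most 14.1%, while the other exons drawn are below 0.5%.

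The variable region was resolved into its splice sites from pairs of events. The exon (exon 40, chr2:215371909-215372375, 467 bases, coding) can start at a first acceptor, at a second acceptor 75 bases (25 codons) further on, or at an internal acceptor 360 bases (120 codons) further on, and an internal intron of 93 bases (31 codons) can be removed. The stretch between the first and the second acceptor is known as CS1 and holds a binding site for integrin alpha4 beta1. The 3 acceptors and the internal donor are shown, with 3 exon bases in capitals at each site.
first acceptor, chr2:215372373-215372402: tttttggctctaacctctctcggctagACG
second acceptor, chr2:215372298-215372327: cagagatcttggatgttccttccacagTTC
internal acceptor, chr2:215372013-215372042: cgggactcaatccaaatgcctctacagGAC
internal donor, chr2:215372082-215372111: TAGgtgaggaaatccaaattggtcacatcc
The second acceptor had the highest matrix score of the 3 (percentile 37.6, against 5.32 for the first and 12.8 for the internal acceptor), but took few reads.

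The first acceptor took 97.6% ± 0.375 of the acceptor reads in siCtrl2 (SD, n = 3) against 97.0% ± 0.217 with siFUBP1 (SD, n = 3), so that most acceptor reads included CS1. The second acceptor took 1.99%, 2.58% and 2.20% in siCtrl2 and 2.73%, 2.97% and 3.12% in siFUBP1. The groups did not overlap by a small margin. The means were 2.26% ± 0.296 and 2.94% ± 0.194 (SD, n = 3 each), which lie 0.679 percentage points apart and rest on 143 to 311 reads per library, and no test was made. In the siFBL table the second acceptor took 3.71% and 2.56% in siCtrl input and 3.52% and 4.21% in siFBL input, with means 0.731 percentage points apart and overlap (exact two-sided permutation p = 0.667). The internal acceptor, which skips the whole of the alternative 120 codons, took 0.0558 to 0.297% of acceptor reads in siCtrl2, 0.0109 to 0.136% in siFUBP1, 0.0249 and 0.595% in siCtrl input, and 0.0510 and 0.284% in siFBL input. This form was thus near the floor of the counts, with 1 to 26 reads per library. In the U3 table it had 53, 125 and 103 reads in GFP ASO and 99, 93 and 125 in U3 ASO. The separate acceptors could not be solved there, because the events that hold the whole exon were not listed.

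Removal of the internal intron was counted as internal junction reads per 100 acceptor reads, which is not a share of transcripts, since reads that cross a further junction may not be counted. The value ran from 39.3 to 45.1 in the siCtrl2 libraries and from 41.5 to 56.2 in the siFUBP1 libraries, with overlap. It was 71.0 and 68.7 in siCtrl input and 68.9 and 70.1 in siFBL input (exact two-sided permutation p = 1). The siFUBP1 and siFBL tables differed more from each other than any depletion from its control, and they were not compared further.

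**Figure D4:**
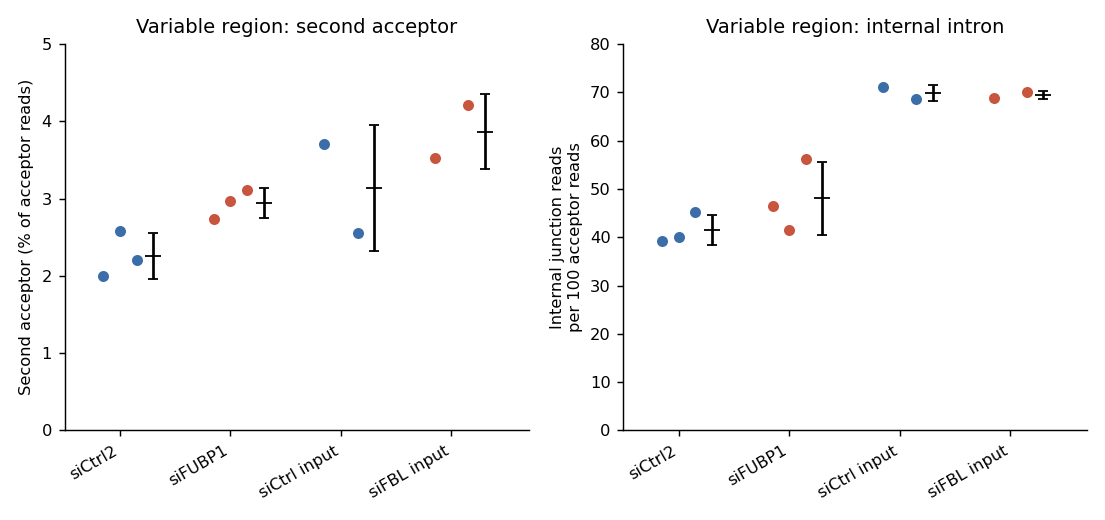
Use of the second acceptor of the variable region (percent of acceptor reads, left) and internal junction reads per 100 acceptor reads (right) in each library of 4 groups; blue, control; red, depletion; the black bar is the mean with the SD. The second acceptor stays between 1.99 and 4.21% in all libraries, and the internal junction lies between 39.3 and 56.2 in the siFUBP1 table and between 68.7 and 71.0 in the siFBL table.

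For siFBL, 2 of 15 FN1 events did not overlap between the groups, beside 13.8% of all 5218 tested events, and both described the same junction, from exon 39 straight to exon 43. It had 23 and 9 reads in siCtrl input and 0 and 3 in siFBL input. In the siFUBP1 table the same junction had 0, 15 and 0 reads in siCtrl2 and 0, 4 and 11 in siFUBP1. Against it, the whole exon 40 was at 0.988 and 0.995 in siCtrl input and at 1 and 0.998 in siFBL input (difference 0.00780, adjusted p = 0.874; exact two-sided permutation p = 0.333). The form from the second acceptor was at 0.781 and 0.827 in siCtrl input and at 1 and 0.964 in siFBL input (difference 0.178, adjusted p = 0.874; exact two-sided permutation p = 0.333). That form had 164 and 86 inclusion reads in siCtrl input and 138 and 163 in siFBL input. The whole exon had 3257 to 3880, and both levels use the same skipping reads. No FN1 event was called in the siFBL table by the quasi-binomial fit or by limma, none had an unadjusted p under 0.05, and the share of all events called was 0.0%.

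FN1 was among the most read genes in every table, at rank 1 of 7243, 2 of 9094 and 1 of 4019 by junction reads. Its events had 49961, 53066 and 45202 reads per 1e+06 junction reads in siCtrl2 and 50673, 54195 and 56664 in siFUBP1, a ratio of 1.09 with overlap. They had 30008, 27249 and 27447 in GFP ASO and 33591, 35226 and 33324 in U3 ASO, a ratio of 1.21 without overlap. In siCtrl input they had 88117 and 88198 and in siFBL input 100583 and 101020, a ratio of 1.14 without overlap (exact two-sided permutation p = 0.333, the smallest possible). The unit is a share of the junction reads in a table and not a level per cell. Reads were summed over events, so rank and unit also depend on the number of events listed for a gene. In bulk samples a change in cell makeup and in RNA per cell cannot be told apart. The summed reads of the 8 hepatocyte marker genes went from 98850 to 101414 per 1e+06 in GFP ASO down to 72063 to 73211 in U3 ASO, and from 157369 to 158995 in siCtrl input up to 175170 to 175431 in siFBL input. They were 90978 to 93212 in siCtrl2 and 93606 to 100674 in siFUBP1. The part of these shifts in the FN1 values was not tested.

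**Figure D5:**
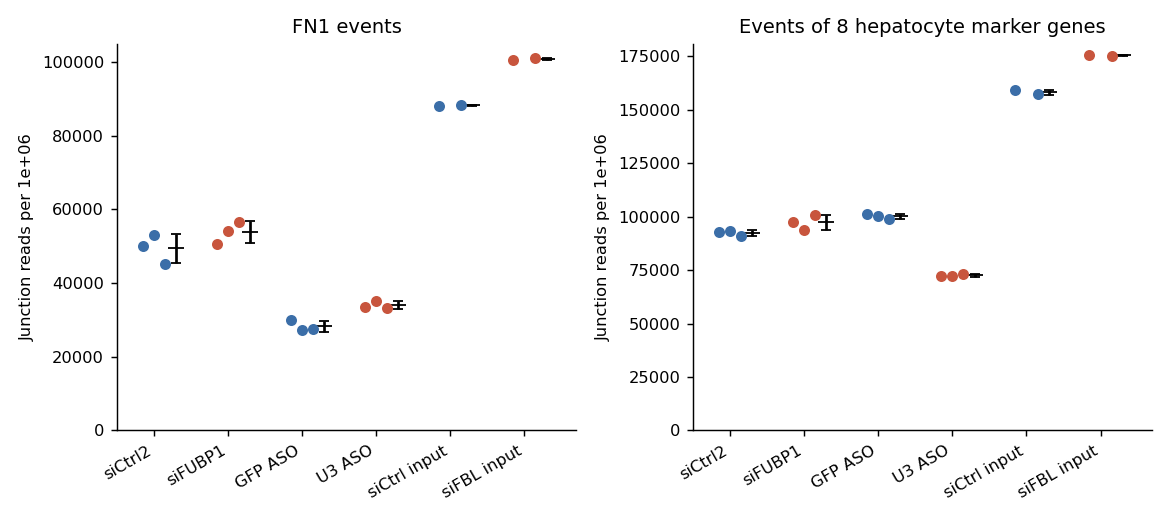
Junction reads of FN1 events (left) and of the events of 8 hepatocyte marker genes (right) per 1e+06 junction reads of the table, in each library; blue, control; red, depletion; the black bar is the mean with the SD. FN1 is higher and the marker sum lower in U3 ASO than in GFP ASO, and both are higher in siFBL input than in siCtrl input.

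In the RIP experiment, the gene table gives an authors' mean over RIP and input libraries of each condition. For FN1 this mean was 615137 in siCtrl and 752339 in siFBL, at rank 3 of 28278 genes in both. The ratio of 1.22 mixes bound and input RNA, has no replicate values, and says nothing about binding of FUBP1 to FN1.

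Likeness to EDB was sought among 6869 events listed in both the siFUBP1 and the U3 table, with a range of at least 0.05 in each. Over the 12 libraries (centred within each table), the events with the highest Pearson r were in CEACAM1, GLTPD2 and ATP6V0B. By Spearman rho the highest were in CRAT (0.96), GLTPD2 (0.94) and EML6 (0.92). The CEACAM1 exon (chr19:42511576-42511628), of a cell adhesion receptor, had r = 0.93 and rho = 0.90, with mean levels of 0.331 in siCtrl2, 0.540 in siFUBP1, 0.402 in GFP ASO and 0.271 in U3 ASO. The GLTPD2 exon had r = 0.91 and rho = 0.94, with 0.402, 0.908, 0.787 and 0.574 in the same groups. The ATP6V0B exon, of a proton pump subunit, had r = 0.89 and rho = 0.91, with 0.692, 0.985, 0.868 and 0.830. The libraries and their group differences are shared by all events, and these values describe likeness only.

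For the genes that act with fibronectin, few events were tested. Of 32 matrix partners and receptors, 11 had 28 tested events in the siFUBP1 table, 11 had 38 in the U3 table and 4 had 10 in the siFBL table, with 0 called in either direction in each, beside 0.197%, 0.226% and 0.0% of all events called, so that counts of 0 are no result about the list. Without overlap between the groups were 0 of 28, 3 of 38 and 1 of 10, beside 5.05%, 6.03% and 13.8% of all events. Their median absolute difference was 0.00904, 0.00466 and 0.0216, beside 0.0288, 0.0197 and 0.0648 over all events. Events of like depth were not compared, so nothing is read from these medians. In the U3 table the largest difference without overlap was that of a 128-base exon of BMP1, a protease that processes procollagen, at 1 in all GFP ASO libraries and at 0.867 ± 0.0831 in U3 ASO (SD, n = 3; quasi-binomial F test, adjusted p = 0.845). In the siFBL table it was a 96-base exon of ITGB5, at 0.993 ± 0.00988 without and 0.946 ± 0.0497 with fibrillarin depletion (SD, n = 2 each; quasi-binomial F test, adjusted p = 0.874). Among integrins, which bind fibronectin, the 46-base exon of ITGAV had mean levels of 0.133 ± 0.157 (siCtrl2) and 0.0840 ± 0.0486 (siFUBP1), and the 90-base exon of ITGB5 of 0.948 ± 0.0902 and 0.994 ± 0.00989 (SD, n = 3 each), with overlap in both.

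Of 14 RNA-binding proteins and their kinases known from work on the splicing of EDA or EDB, 8 had 22 tested events in the siFUBP1 table, 9 had 42 in the U3 table and 9 had 17 in the siFBL table. None was called in the siFUBP1 and siFBL tables, and 1 of 42 was called in the U3 table, upward, beside the same shares of all events (0.197%, 0.0% and 0.226%). Groups without overlap were 1 of 22, 2 of 42 and 2 of 17 events, beside 5.05%, 6.03% and 13.8%. Median absolute differences were 0.0169, 0.00609 and 0.125 in the siFUBP1, U3 and siFBL tables, beside 0.0288, 0.0197 and 0.0648 over all events. Here too, depth was not matched. The called event was the exon of SRSF3, an SR protein, at chr6:36599821-36600276 (456 bases). Its level rose from 0.0414 ± 0.0197 in GFP ASO to 0.188 ± 0.00422 in U3 ASO (SD, n = 3 each), without overlap. It also passed the threshold in limma on log2 odds with a variance trend. The list was chosen with earlier results of these data known, so this call is a description only. Whether the SRSF3 event bears on EDA or EDB was not tested. In the siFUBP1 table the largest difference of the list was that of a 963-base exon of MBNL1 (-0.130). An exon of CLK1, a splicing kinase, was next, at 0.692 ± 0.202 (SD, n = 3) without and 0.819 ± 0.0669 (SD, n = 3) with FUBP1 depletion. Neither was called (quasi-binomial F test, adjusted p = 0.812 for each). For siFBL the largest differences were in exons of ESRP2 (-0.308) and MBNL1 (0.302 and -0.285), with overlap in each.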

How the data were processed

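FN1 and the gene lists were chosen with earlier results of these data known. Per the labels and the study's methods, the authors trimmed adapters with Cutadapt, aligned reads to hg38 with HISAT2 and counted junction reads of skipped exons with rMATS; versions and annotation are not given in the sources used here. The deposited tables hold 1 inclusion and 1 skipping count per library and event in a list, in an order that carries no replicate number. Inclusion levels were recomputed from these counts. The authors' fold changes, p-values, false discovery rates, inclusion level differences and 6 columns of inclusion levels were not used. The gene table of the RIP experiment holds the authors' comparison of RIP with input; only the authors' mean, a score pooled over libraries, was used.

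Events averaging 10 or more junction reads in a library were each tested with a quasi-binomial F test, with dispersion moderated across events by limma 3.58.1 (R 4.3.3) and p-values adjusted by Benjamini-Hochberg over all tested events of a table. Events were called at 0.1, the threshold of the study. For siFUBP1 and U3, calls of FN1 are descriptions. Single values in the siFBL table were compared with exact two-sided permutation tests. The fit was tested on simulated data. edgeR was not used, since the tables hold lists of counts per event, not a count per gene. Named FN1 exons were all those with an event; named like events had the highest Pearson correlation with EDB, the range minimum of 0.05 being applied to the other events and not to EDB; of the lists, called events and some of the largest differences were named. Sequences and annotation came from hg38 and GENCODE 44. The precision of levels was set by the junction reads per library, 910779 to 13321799 summed over all events, and far fewer for single events. Alternatives were limma on log2 odds with 0.5 added, minimums of 20 and 1 reads, no length scaling, a threshold of 0.05, and each library left out. For FN1 reads, the 20 events with the most reads were also taken out of the total, while the FN1 sum kept all its events.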

Additional observations from a re-analysis of the deposited data

How the results depend on the processing

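Of 113 values under an alternative, 98 moved by less than the spread between libraries, kept their side of the threshold or, for counts, stayed close to the reported one, and no called value changed sign; the EDA difference for siFUBP1, which was not called, turned from -0.00368 to 0.00136 without siCtrl2 library 3 and to 0.00156 without siFUBP1 library 1. Without length scaling, which counts each inclusion junction in full, the EDB difference was 0.101 for siFUBP1 and -0.0468 for U3, and the EDA difference for U3 was 0.0373. Under limma on log2 odds, the number of FN1 events called was 0 for siFUBP1 without and with a variance trend, and 0 and 1 for U3; the cause was not tested. With 1 library left out at a time, the lone remaining library or pair being assumed to vary like the others, the number of FN1 events whose groups did not overlap was 1 to 3 for siFUBP1, 3 to 7 for U3 and 2 to 9 for siFBL, since fewer libraries overlap less often; the count was 3 without siCtrl2 library 1 or siFUBP1 library 3, 2 without siFUBP1 library 1, and 7 without GFP ASO library 1 (numbered by place in the list), and for siFBL 7 and 9 without siCtrl input libraries 1 and 2 and 6 without siFBL input library 1. The EDB difference was 0.0592 to 0.0722 for siFUBP1 and -0.0282 to -0.0250 for U3, with both calls made each time, and -0.0189 to -0.00500 for siFBL, never called. The ratio of FN1 junction reads for siFBL became 1.19 once the 20 most read events were taken out of the total. The FN1 sum kept all its events, 4 of which were among those 20. No paired analysis was possible because the positions in the deposited lists carry no replicate number; libraries at the same position deviated together with correlations of -0.0140 to 0.0301. The shortest variable region form, with 12.8 and 14.8 reads per library on average for siFUBP1 and siFBL, has levels of low precision.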
